A study of Mus musculus with 16 samples.

Results

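Luminal-type tumor cells of the WB1P mouse model of triple-negative breast cancer were chosen from single-cell counts by a fixed rule on marker UMIs. A UMI is a unique molecular identifier, the tag by which 1 captured transcript molecule is counted. In the HiSeq tables of WB1P, a barcode was taken as a cell when it had 450 to 4000 genes and under 20% of its UMIs from mitochondrially encoded genes. A cell was luminal-type when Epcam, Krt8, Krt18, Krt7, Krt19, Cdh1, Cldn3 and Cldn7 together had at least 3 UMIs. It also had to hold under 10 UMIs of the collagen genes Col1a2 and Col3a1, under 3 of the myeloid genes Tyrobp, Fcer1g and Ctss, and under 2 of the endothelial genes Cdh5, Emcn and Pecam1. This rule gave 522 of the 1307 WB1P cells, and the series held 4798 HiSeq cells in all. The levels of these marker genes chose the cells, so they are given as a description and support nothing.

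End-stage mammary tumors of WB1P and WB1P-Myc mice were digested, and live dapi-negative singlets were sorted and measured by Drop-seq, in which each droplet joins a cell to a barcoded bead and the 3′ ends of its transcripts are read. WB1P mice carry WapCre;Brca1F/F;Trp53F/F, and WB1P-Myc mice carry the same alleles plus Myc, as a Cre-activated invCAG-Myc-IRES-Luc construct in the Col1a1 locus. In both models, WapCre drives Cre recombinase in mammary epithelium, and the animals were untreated and on an FVB/n background. Each model was 1 cell suspension split into 4 droplet fractions, so the fractions are technical and no test between the models is possible. A figure legend of the study names 2 mice per model, but the sources used here do not say if cells of both were mixed. Each model was 1 suspension, so preparation and model cannot be told apart. Ages of the mice are not given in the labels.

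The mammary duct has an inner luminal and an outer basal or myoepithelial layer. The luminal layer holds hormone-sensing cells, which carry the estrogen and progesterone receptors, and hormone receptor-negative progenitors, which give rise to the milk-making alveolar cells. Keratins 8 and 18 and the adhesion protein EpCAM mark luminal cells, and keratins 5 and 14 mark basal cells. Brca1-deficient mammary tumors are known for features of luminal progenitors and for the absence of hormone receptors.

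Luminal-type cells made up 39.9% of WB1P cells (95% Clopper-Pearson interval 37.3 to 42.7). By fraction 1, 2, 3 and 4 their number was 49 of 65, 159 of 426, 154 of 394 and 160 of 422, or 75.4%, 37.3%, 39.1% and 37.9%. Fraction 1 stood apart, with 65 cells, and held 72971 luminal-type UMIs against 486072 to 547852 in the other fractions. Without it the share was 38.1%. Luminal-type cells had a median of 1949.5 UMIs and 1043.5 genes, a range of 620 to 15467 UMIs, and 1654035 UMIs in all. Of these UMIs, 3.78% came from mitochondrially encoded genes and 15.4% from ribosomal protein genes. The same rule applied to WB1P-Myc gave 648 of 3491 cells with 3171369 UMIs, a median of 3857 UMIs, 2.99% mitochondrial and 21.1% ribosomal protein UMIs. Total counts per HiSeq table were 256985 to 1918672 UMIs in WB1P and 3814562 to 4960334 in WB1P-Myc. Among the luminal-type cells, 24 pairs within a fraction had near-identical barcodes, 1 barcode was also listed in another WB1P fraction, and 0 were listed in WB1P-Myc fractions. The MiSeq tables listed 4 of the 522 barcodes, so values from them rest on nearly all other barcodes.

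The edge of the rule was not a gap. The 35 luminal-type cells with exactly 3 marker UMIs had a median of 1006 UMIs and 795 CPM of Epcam, and the 25 barcodes with 2 marker UMIs that met all other limits had a median of 1889 UMIs and 329 CPM. CPM here is the pooled count of a gene over all UMIs of the group, scaled to a total of 1000000. Of 553 WB1P cells with enough epithelial UMIs, 14 were left out for collagen UMIs, 17 for myeloid UMIs and 0 for endothelial UMIs. The median luminal-type cell held 12 marker UMIs, against 7 in WB1P-Myc cells of the same rule. Of the WB1P-Myc cells of the same rule, 129 of 648 held exactly 3 marker UMIs.

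The rule genes themselves had these levels. Epcam, the epithelial adhesion molecule, was at 2776 CPM (95% Poisson interval 2696 to 2857), with 4276, 3006, 2732 and 2383 CPM by fraction. Krt18 was at 1734 CPM and Krt8, its partner in luminal filaments, at 973 CPM. Krt7 was at 440.1 CPM and the tight-junction gene Cldn3 at 372 CPM. Lower levels were held by Cldn7 (186 CPM), Krt19 (93.1 CPM) and Cdh1, which encodes E-cadherin (85.2 CPM). All intervals cover counting error only. PCR copies are collapsed by UMIs, and the spread between mice is not measured.

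Myc, Brca1 and Trp53 are the genes that the models alter. Brca1 had 11 UMIs and 13.7, 5.48, 8.23 and 5.48 CPM by fraction, and Trp53 had 11 UMIs and 0, 7.30, 10.3 and 3.66 CPM. These counts come from 3′ tags, which lie outside the deleted exons and can still be transcribed, so they check nothing about the deletions. Myc was at 41.1, 80.3, 94.6 and 42.0 CPM by fraction in luminal-type cells and at 179, 191, 184 and 196 CPM in WB1P-Myc cells of the same rule. All 4 WB1P values were below all 4 WB1P-Myc values, and the log2 ratio of the pooled levels was -1.41 (-1.71 to -1.12). The transgenic Myc is followed by IRES-Luc, so its 3′ tags may not be counted under Myc. In WB1P, Myc was at 22.2 CPM in macrophage-rule and 121 CPM in fibroblast-rule cells.

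Cells of other types in WB1P give the levels that stromal cells of the same tumors held. Macrophage-rule cells (230) had at least 10 UMIs of the 3 myeloid genes, and fibroblast-rule cells (194) at least 10 UMIs of the 2 collagen genes, with the other limits met and no epithelial limit. The 14 fibroblast markers summed to 679.5 CPM in luminal-type cells (507 to 806 by fraction) and to 65093 CPM in fibroblast-rule cells. The 14 macrophage markers summed to 401 CPM (98.6 to 612) and to 63299.5 CPM in macrophage-rule cells. In WB1P-Myc cells of the same rule, the sums were 623 and 371 CPM, and both lists hold genes that the rule caps. The 12 endothelial markers summed to 92.5 CPM against 51.1 CPM in WB1P-Myc, with Cdh5 and Cldn5 at 0 UMIs. Most of this sum was Plvap (39.3 CPM) and Flt1 (36.9 CPM), both higher than in WB1P-Myc (log2 ratios 1.96 and 2.78), and Egfl7 was lower (-1.69). The 12 T and NK cell markers summed to 29.0 CPM with Cd3e and Cd3g at 0. The 8 pericyte, 7 adipocyte and 5 red blood cell markers summed to 37.5, 12.1 and 18.7 CPM, against 55.8, 6.94 and 2.21 CPM in WB1P-Myc. Apoe, the most abundant macrophage marker, was at 191 CPM against 21092 in macrophage-rule cells, and Lyz2 at 71.3 against 12149 CPM. In all, 344 of the 522 cells held none of the stromal rule UMIs. The part of RNA from other cells in the low levels of stromal genes was not tested.

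Beyond the rule genes, levels were set against those of macrophage-rule and fibroblast-rule cells, which is a description, since the cells were chosen on related genes. This ranking took genes with at least 200 UMIs in luminal-type cells. Among them, the 10 with the highest ratio over pooled macrophage-rule and fibroblast-rule cells were Dcpp1, Klk6, Lgals7, Col9a1, Cldn4, Ly6d, Atp1b1, Sfn, Cxadr and S100a14. Of these, Dcpp1 was seen in 47 and Klk6 in 35 of the 522 cells. Dcpp2, with 130 UMIs, was below the minimum, and its log2 ratio of 6.41 was above the 6.29 of Dcpp1. Lgals7, a galectin of stratified epithelia, was at 331 CPM against 10.1 in macrophage-rule and 5.12 in fibroblast-rule cells. Col9a1, a collagen gene known from cartilage, was at 245 CPM against 4.04 and 6.82 CPM. Cxadr, which encodes a tight-junction receptor for coxsackievirus and adenovirus, was at 187 CPM, and Sfn, the epithelial 14-3-3 sigma, at 125 CPM. With every cell thinned to 1000 UMIs, Col9a1 was seen in 20.9% of luminal-type, 0.481% of macrophage-rule and 0% of fibroblast-rule cells. In WB1P-Myc cells of the same rule it was at 194 CPM and seen in 14.1% at equal depth, so it was not particular to WB1P. The most abundant genes, without mitochondrial and ribosomal protein genes, were Malat1 (21964 CPM), Pabpc1 (7774), Actb (7121), Spp1 (6803) and Fth1 (4878). All of these were abundant in stromal cells too, and Actb, Fth1 and Malat1 were higher in pooled macrophage-rule and fibroblast-rule cells than in luminal-type cells.

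**Figure D1:**
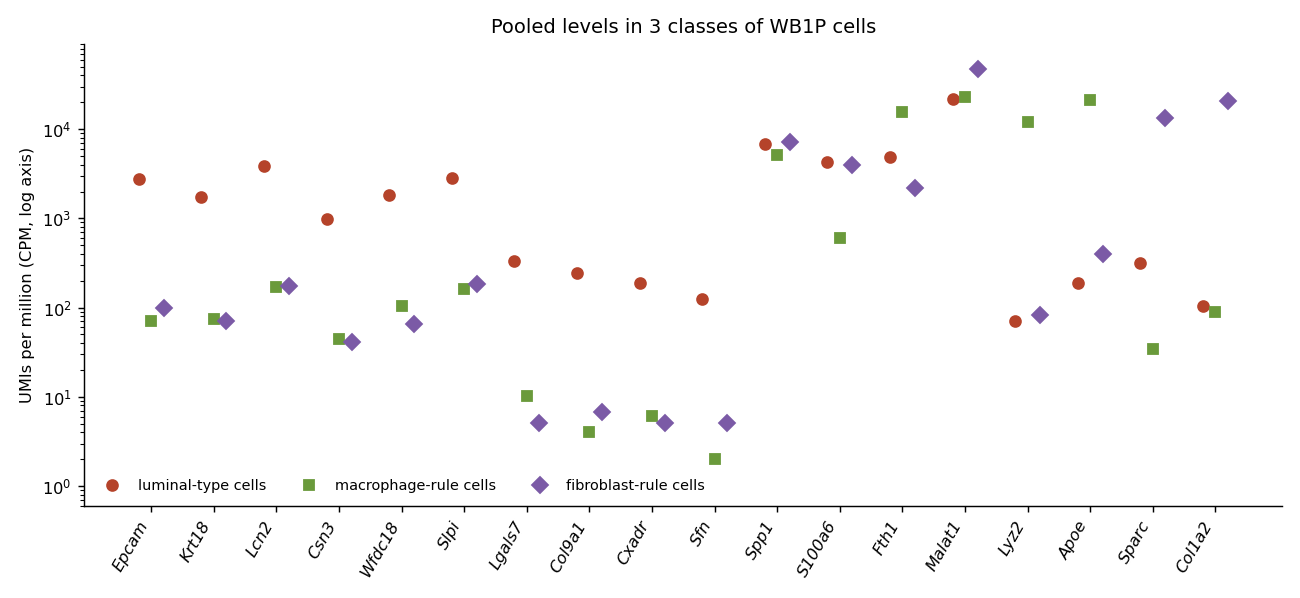
Pooled levels (CPM, log axis) of 18 genes in 3 classes of WB1P cells, with circles for luminal-type, squares for macrophage-rule and diamonds for fibroblast-rule cells. Epcam, Lcn2, Csn3, Wfdc18 and Slpi were at least 10 times higher in luminal-type cells than in both stromal classes, while Spp1 reached 5128 and 7257 CPM in macrophage-rule and fibroblast-rule cells.

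Luminal-type cells were then compared with the WB1P-Myc cells picked by the same rule. The WB1P-Myc cells were deeper but held fewer marker UMIs (median 7 against 12), so the same cut was looser for them. Log2 ratios of pooled CPM are given with their 95% conditional binomial interval, value first, and a gene was called when it differed at least 2-fold among the 8244 genes with at least 50 UMIs over both groups. Of these, 1189 were at least 2-fold higher in luminal-type cells (14.4%) and 1172 at least 2-fold lower (14.2%), with a median log2 ratio of -0.004. Scaling by edgeR's TMM factors moved this median to -0.12 and the counts to 1014 higher and 1399 lower. Each model is 1 sample, so the calls have no replicate check and no p-value. Of the 8244 genes, 1385 had all WB1P fractions above all WB1P-Myc fractions and 1536 had all below. Fractions without overlap were thus common and do not set a gene apart. The WB1P-Myc cells of the same rule held 582 CPM of 11 neural crest and glial genes, against 125 CPM in luminal-type cells. When only the 232 of 648 WB1P-Myc cells with no glial UMI were used, 601 of 5818 genes were lower and 1006 were higher, with fewer cells and fewer genes tested than before. With at least 10 epithelial UMIs per cell in both groups, 976 of 6591 genes were higher and 924 lower. Of 118 called ratios of named genes, 112 stayed past 2-fold with that limit. Of the called genes named in the text, the fractions of the models overlapped for Aldh1a3, Prlr, Sox10, Ltf, Gata3, Cited1, Krt17, Csn1s1, Csn2, Cldn4, Spint2, Twist1, Ccl20, Hk1, P4ha1, Mki67, Cdc20, Hmmr, Bub1b, Cdt1, Hspa1a, Hspa1b, Ifi27l2a and Egfl7. The fractions also overlapped for Col5a2 and for Klk6, at 20.1 CPM in WB1P fraction 4 and 25.6 CPM in WB1P-Myc fraction 3. A list whose called share is near 14.4% or 14.2% is not set apart by its count. The gene lists were chosen with earlier results of these data known, so a larger share is a description and supports nothing.

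**Figure D2:**
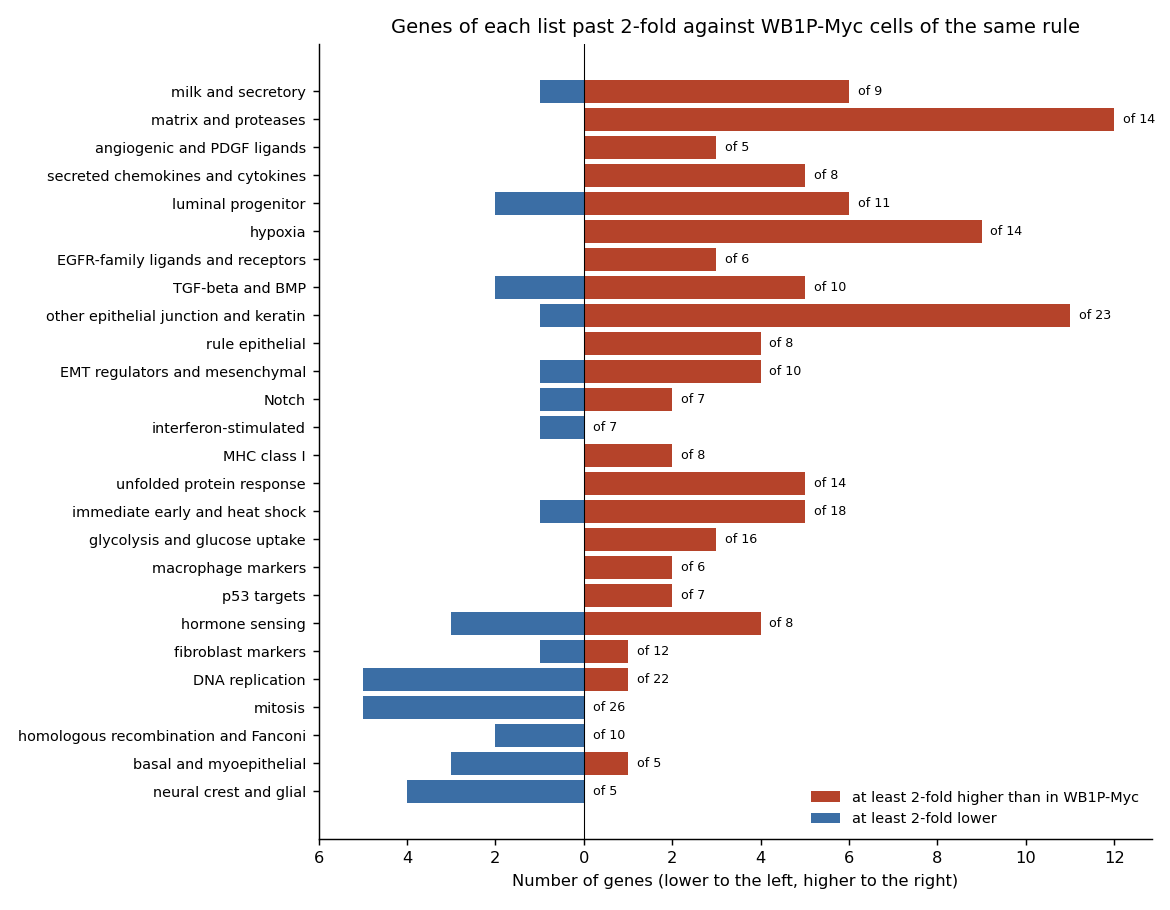
Number of genes of each list at least 2-fold higher (right) or lower (left) in luminal-type cells than in WB1P-Myc cells of the same rule, for lists with at least 5 genes tested, with the number tested beside each bar. Matrix and protease genes had 12 of 14 and hypoxia genes 9 of 14 on the higher side, and mitosis genes had 5 of 26 on the lower side, beside 14.4% of all genes called higher and 14.2% called lower. The lists were chosen with earlier results of these data known, so the counts are a description.

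Luminal progenitor genes were abundant. Of 11 tested, 6 were higher and 2 lower (median log2 ratio 1.45), and the 16 listed genes summed to 5175 CPM, 4438 to 9086 by fraction, against 607 CPM. Lcn2, which encodes the siderophore-binding protein lipocalin 2, gave most of this sum with 6523, 3840.4, 3989 and 3288 CPM by fraction. In WB1P-Myc it was at 134, 92.8, 105 and 89.7 CPM, so the groups did not overlap, and the log2 ratio was 5.15 (5.00 to 5.32). At equal depth 75.2% of luminal-type cells had a Lcn2 UMI, against 12.5% of macrophage-rule and 12.1% of fibroblast-rule cells. Mfge8, a milk fat globule protein that bridges apoptotic cells to phagocytes, was at 1740.4, 739, 662 and 581 CPM by fraction, with fraction 1 far above the rest and all 4 above the 82.2 to 112 CPM of WB1P-Myc. The transcription factors and receptors of this cell state were lower in level. Elf5, a driver of alveolar fate, was at 38.7 CPM (log2 ratio 1.45, 0.87 to 2.03), the retinaldehyde dehydrogenase gene Aldh1a3 at 59.2 CPM (2.34, 1.79 to 2.93) and the GABA receptor subunit gene Gabrp at 30.2 CPM (2.58, 1.75 to 3.49). Kit, the stem cell factor receptor, was at 42.3 CPM and Ehf at 119.7 CPM, both under 2-fold from WB1P-Myc. Cd14 was at 211 CPM and 2.08 higher on the log2 scale, and it was at 3234 CPM in macrophage-rule cells. Sox10, at 151, 45.6, 65.8 and 45.7 CPM by fraction, and Ltf, at 5.44 CPM, were the 2 lower genes.

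The estrogen and progesterone receptor genes were not seen. Esr1 and Pgr had 0 UMIs in 1654035, which allows up to 1.81 CPM by a limit of 3 UMIs. In this list of hormone-sensing genes 4 of 8 tested were higher and 3 lower. The higher genes were Areg, Prom1, Xbp1 and the prolactin receptor gene Prlr, at 56.8 CPM (1.19, 0.74 to 1.64). The lower genes were Gata3 (6.05 CPM), Cited1 (4.23 CPM) and Tbx3 (1.21 CPM, 2 UMIs), transcriptional regulators of luminal development.

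Of the basal keratins, Krt14 and Krt17 were seen and Krt5 was not. Krt17 was at 85.9 CPM. Krt5 had 0 UMIs, at least 10.8-fold below the 19.5 CPM of WB1P-Myc cells of the same rule. Krt14 was at 260.4, 192, 163 and 101 CPM by fraction and 174 to 377 CPM in WB1P-Myc, so the groups overlapped, with a log2 ratio of -0.77 (-0.98 to -0.57). Of 5 basal genes tested, 3 were lower (Krt5, Krt17 and Igfbp2) and 1, the laminin-binding integrin gene Itga6, was higher (1.29, 0.99 to 1.59). Krt5 passed the minimum of UMIs over both groups only through the WB1P-Myc cells, so its place among the lower genes supports nothing. Krt14 UMIs were unevenly spread over cells, as described further on.

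Milk and secretory genes were abundant. Of 9 tested, 6 were higher and 1 was lower (median log2 ratio 2.52), and the sum was 11479.8 CPM against 2341 CPM in WB1P-Myc. Spp1 alone gave 6803 CPM of this sum, and the same list summed to 5812 CPM in macrophage-rule and 7755 CPM in fibroblast-rule cells. Spp1, which encodes the secreted phosphoprotein osteopontin, was at 3878, 8683, 5874 and 6137 CPM by fraction against 72.5 to 146 CPM, a log2 ratio of 5.91 (5.75 to 6.06). Its level in macrophage-rule and fibroblast-rule cells of the same tumors was of the same order, so it did not mark the luminal-type cells within WB1P. Csn3, the gene of kappa-casein, was at 2110.4, 1000.3, 714 and 1045 CPM by fraction and at 12.8 to 42.7 CPM in WB1P-Myc (5.16, 4.85 to 5.49), and at 44.5 and 40.9 CPM in the 2 stromal classes. Other caseins were rare. Csn1s1 was at 29.0 CPM and Csn2 at 3.63 CPM, the latter lower than in WB1P-Myc (-2.43, -3.93 to -1.23), and Csn1s2a and Glycam1 had 0 UMIs. Clu, which encodes the extracellular chaperone clusterin, was at 444 to 2193 CPM by fraction (2.18, 2.03 to 2.33).

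Not every secretory gene differed. Wfdc18, a gene of the whey acidic protein family, was at 1782, 2245, 1362 and 1848 CPM by fraction in luminal-type cells and at 1225, 991, 3260.5 and 1516 CPM in WB1P-Myc, which overlapped, with a log2 ratio of -0.00 (-0.07 to 0.06). Slpi, a related gene of a secreted inhibitor of leukocyte proteases, was at 2152, 2632, 2187 and 3654 CPM by fraction against 145 to 306 CPM (3.93, 3.80 to 4.05). Slpi was seen in 55.3% and Wfdc18 in 46.4% of luminal-type cells at equal depth, against 11.5% and 3.85% of fibroblast-rule cells.

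**Figure D3:**
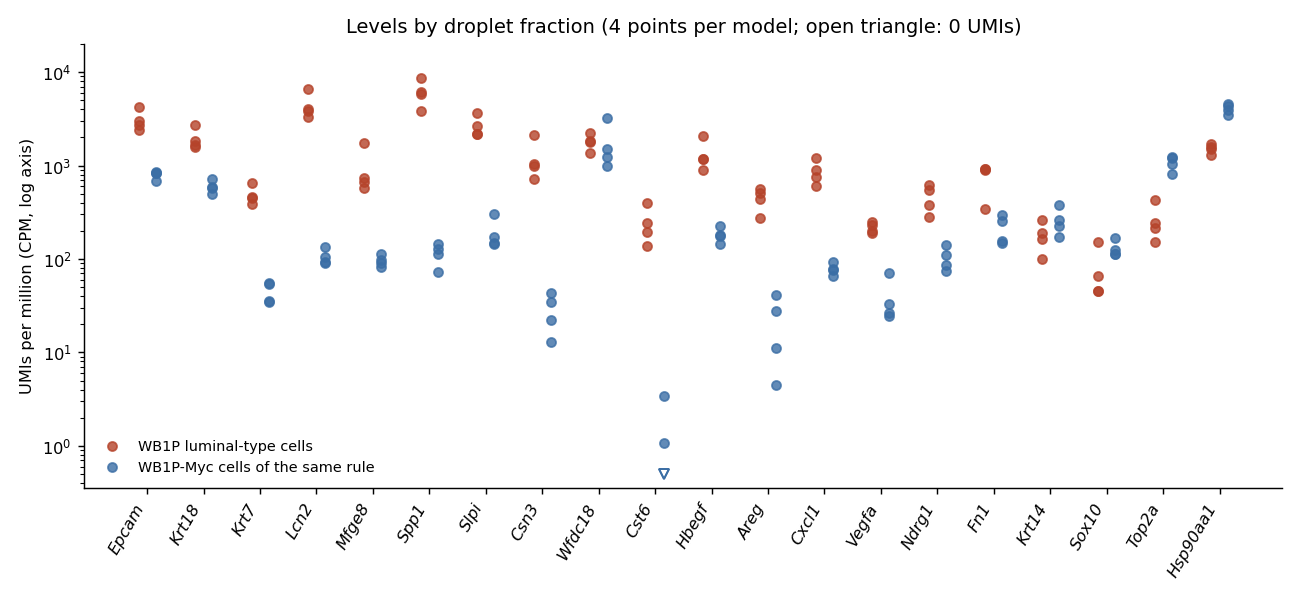
Level of 20 genes (CPM, log axis) in each of 4 droplet fractions, for luminal-type cells and for WB1P-Myc cells of the same rule, with an open triangle for fractions at 0 UMIs. Lcn2, Spp1, Slpi, Csn3, Cst6 and Areg were higher in every WB1P fraction, Wfdc18 and Krt14 overlapped, and Top2a and Hsp90aa1 were lower in every WB1P fraction.

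Among all genes with no overlap between the fractions of the models, the 10 largest ratios in favor of luminal-type cells were those of Cst6, Comp, Itga8, Dcpp2, 1500015O10Rik, Dcpp1, Rbp7, Chrm3, Spp1 and Fbln5. Cst6, which encodes the cysteine protease inhibitor cystatin E/M, was at 137, 396, 245 and 194 CPM by fraction and had 4 UMIs in WB1P-Myc (7.76, 6.39 to 9.64). 1500015O10Rik, the gene of the secreted peptide augurin, was at 1247, 728, 527 and 687 CPM by fraction against 4.49 to 13.5 CPM (6.37, 5.81 to 6.99), and it reached 507 CPM in fibroblast-rule cells. Rbp7, a retinol-binding protein gene, was at 288, 146, 189 and 197 CPM by fraction, 64.1-fold higher than in WB1P-Myc when pooled, and at 4.04 and 6.82 CPM in the stromal classes. Comp, Itga8 and Chrm3, which encode a cartilage matrix protein, an integrin subunit and the M3 muscarinic receptor, were at 41.1, 30.2 and 38.1 CPM. Each had 1 or 2 UMIs in WB1P-Myc, so the intervals of the log2 ratios were wide, 7.03 (4.50 to 12.35), 6.58 (4.04 to 11.91) and 5.92 (4.00 to 8.99). Comp (68 UMIs), Itga8 (50) and Chrm3 (63) passed the minimum of 50 UMIs only through the luminal-type cells. The filter let such genes in because they were high there, so their place in this ranking supports nothing. The same holds for other genes here with few UMIs in WB1P-Myc. Fbln5, a gene of elastic fibers, was at 57.4 CPM and at 63.1 CPM in fibroblast-rule cells.

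At the other end, the lowest ratios included those of Igf2, Mfng, Bex1, Bex4, Papss2, Crabp1, Gnai1, Mdk and Grb10. All of these passed the minimum of UMIs over both groups only through the WB1P-Myc cells. The filter let them in because they were high there, so their place in this ranking supports nothing. The same holds for other lower genes with few UMIs in luminal-type cells. Igf2, an imprinted growth factor gene, had 0 UMIs in luminal-type cells and 119.6 to 325 CPM in WB1P-Myc fractions. With 0 set to 3 UMIs it was 144-fold lower. Mfng, whose product modifies Notch receptors, had 0 UMIs and was 89.4-fold lower on the same basis. Bex1, Bex4 and the retinoic acid-binding gene Crabp1 also had 0 UMIs and were 84.0-fold, 80.7-fold and 56.2-fold lower on that basis. Mdk, which encodes the growth factor midkine, had 4 UMIs (-5.73, -7.61 to -4.36), and Grb10, an imprinted adaptor gene, had 2 (-5.70, -8.75 to -3.83). A count of 0 limits the level to 1.81 CPM in luminal-type cells and does not show absence. Mbp, the gene of myelin basic protein, had 6 UMIs, at a log2 ratio of -5.23 (-6.68 to -4.10).

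The 3 Dcpp genes, demilune cell and parotid protein genes best known from salivary glands, lie side by side on mouse chromosome 17 and were seen in few luminal-type cells. Dcpp1 was at 27.4, 186, 245 and 31.1 CPM by fraction from 240 UMIs in 47 cells, against 7 UMIs in WB1P-Myc (6.04, 4.97 to 7.37). Dcpp2 had 130 UMIs in 27 cells and 0 in WB1P-Myc, 83.1-fold higher with 0 set to 3 UMIs. Dcpp3 had 14 UMIs in 5 cells. Without fraction 3, Dcpp2 fell from 78.6 to 36.0 CPM. Fractions 2 and 3 held most Dcpp1 UMIs. In GENCODE the Dcpp2 gene (chromosome 17, 23880880 to 23900788, plus strand) spans nearly all of Dcpp1 (23880876 to 23882853), so how reads were split between these near-identical genes is uncertain. The 250 bases upstream of their RefSeq starts are shown to let this similarity be seen. The RefSeq start of Dcpp2 differs from the GENCODE start, so its window lies inside the GENCODE gene model. They come from the RefSeq promoter table of GRCm38.p6, in which 4 of the 6 genes looked for here were listed and Ndrg1 and Cst6 were missing, and capitals mark the letters TATAA. The windows are chr17:23880626-23880875 (Dcpp1), chr17:23898472-23898721 (Dcpp2) and chr17:23917208-23917457 (Dcpp3), all on the plus strand.
Dcpp1: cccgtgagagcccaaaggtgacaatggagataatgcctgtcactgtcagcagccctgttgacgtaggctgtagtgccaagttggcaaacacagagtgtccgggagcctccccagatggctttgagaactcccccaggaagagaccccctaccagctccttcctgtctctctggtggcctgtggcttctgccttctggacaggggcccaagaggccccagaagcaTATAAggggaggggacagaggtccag
Dcpp2: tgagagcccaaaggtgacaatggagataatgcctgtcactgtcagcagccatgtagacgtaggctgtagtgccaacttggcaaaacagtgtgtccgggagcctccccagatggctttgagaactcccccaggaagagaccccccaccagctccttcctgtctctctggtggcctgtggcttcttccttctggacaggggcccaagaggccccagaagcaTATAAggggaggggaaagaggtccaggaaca
Dcpp3: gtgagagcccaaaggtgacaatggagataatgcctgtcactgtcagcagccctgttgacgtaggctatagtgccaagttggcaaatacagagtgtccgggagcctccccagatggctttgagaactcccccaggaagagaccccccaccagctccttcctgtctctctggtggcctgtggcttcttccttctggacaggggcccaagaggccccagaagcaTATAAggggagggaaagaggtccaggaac
The windows of Dcpp1 and Dcpp2 were identical at 238 of 246 aligned bases (96.8%), those of Dcpp1 and Dcpp3 at 241 of 247 (97.6%) and those of Dcpp2 and Dcpp3 at 243 of 250 (97.2%). Each held TATAA once, searched on both strands, 26, 31 and 29 bases before the start, and 22.8% of all 32851 upstream windows of this length held these letters. A match is a description of the sequence only.

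Genes of epithelial junctions that the rule did not use were compared in the same way. Both groups were chosen on related genes, with a looser cut for WB1P-Myc, so these counts are a description. In the 407 thinned luminal-type cells, the sum of this list had a Spearman rho of 0.34 with that of the rule genes. Of 23 tested, 11 were higher and 1 was lower (Cdh3), and the 26 genes summed to 1496 CPM against 850.4 CPM. Cldn4, a tight-junction claudin, was at 54.8, 78.5, 132 and 201 CPM by fraction against 16.4 to 55.5 CPM in WB1P-Myc (2.17, 1.82 to 2.54), with 1 value overlapping. F11r, which encodes junctional adhesion molecule A, was at 186 CPM (1.87, 1.59 to 2.15) and the protease inhibitor gene Spint2 at 368 CPM (1.21, 1.04 to 1.39). Desmoplakin (Dsp) and the epithelial splicing factor gene Esrp1 were at 71.9 and 58.0 CPM and under 2-fold from WB1P-Myc.

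Regulators of epithelial-mesenchymal transition (EMT) and mesenchymal genes were tested for 10 genes, of which 4 were higher and 1 was lower. The EMT transcription factor genes Snai1 and Twist1 were at 24.8 and 51.4 CPM (2.71, 1.76 to 3.78 and 2.70, 2.05 to 3.41). Fn1, which encodes fibronectin, was at 343, 893, 924 and 908 CPM by fraction, lowest in fraction 1, against 149.5 to 299 CPM in WB1P-Myc (1.98, 1.84 to 2.11). Vim and Sparc were at 501 and 316 CPM and under 2-fold from WB1P-Myc. Fibroblast-rule cells held 47.8 CPM of Snai1, 83.6 of Twist1, 2444 of Fn1 and 13455 CPM of Sparc. The fibroblast markers, at 679.5 CPM in luminal-type and 623 CPM in WB1P-Myc cells, include collagen genes that the rule caps, and their part in these levels was not tested.

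Matrix and protease genes stood 12 of 14 on the higher side and none on the lower side (median log2 ratio 2.51), with sums of 1737 and 434 CPM. Lamb3, which encodes a laminin chain of epithelial basement membranes, was at 47.3 to 137 CPM by fraction against 4.27 to 5.89 CPM in WB1P-Myc (3.58, 2.81 to 4.44), with no overlap. It was at 1.71 CPM in fibroblast-rule and 4.04 CPM in macrophage-rule cells, below its level in luminal-type cells. The type IV collagen genes Col4a1 and Col4a2 were at 224 and 131 CPM (2.68, 2.37 to 3.00 and 2.66, 2.25 to 3.08), and Col18a1 at 174 CPM. Mmp14, a membrane-bound matrix metalloproteinase gene, was at 224 CPM (3.10, 2.75 to 3.46) and Timp1, an inhibitor, at 210.4 CPM (2.37, 2.08 to 2.67). Unlike Lamb3, Col4a1, Mmp14 and Timp1 were higher in fibroblast-rule cells, at 825, 1782 and 1934 CPM.

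Of the EGF receptor family list, 3 of 6 genes tested were higher (Hbegf, Areg and Tgfa) and 0 lower. Hbegf, the gene of heparin-binding EGF-like growth factor, was at 2083, 1165, 1189 and 890.1 CPM by fraction against 146 to 226 CPM (2.60, 2.46 to 2.74). Areg, which encodes amphiregulin, was at 507, 555, 438 and 274 CPM by fraction against 4.49 to 41.2 CPM (4.33, 3.97 to 4.72). All fractions of luminal-type cells lay above all WB1P-Myc fractions for both genes. Receptor genes of the family were rare, with Egfr at 13.9, Erbb2 at 14.5 and Erbb3 at 22.4 CPM. Of the angiogenic and PDGF ligands, 3 of 5 were higher and 0 lower. Vegfa was at 192, 246, 228 and 197 CPM by fraction (2.45, 2.16 to 2.75), Pgf, the placental growth factor gene, at 384, 184, 138 and 155 CPM (3.07, 2.68 to 3.49) and Pdgfa at 140.3 CPM (3.10, 2.66 to 3.56). Vegfa was also at 259 CPM in macrophage-rule cells.

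Chemokine and cytokine genes were also on the higher side, with 5 of 8 tested higher and 0 lower. Cxcl1, a neutrophil attractant, was at 904, 1192, 759 and 609 CPM by fraction against 65.8 to 92.8 CPM (3.46, 3.26 to 3.66), and Cxcl2 was at 285 CPM (2.19, 1.94 to 2.43). Both were higher in a stromal class, with 1748 CPM of Cxcl1 in fibroblast-rule and 1779 CPM of Cxcl2 in macrophage-rule cells. Ccl20 was at 42.9 CPM (3.00, 2.22 to 3.86) and had 0 UMIs in both stromal classes. Il1b, at 49.0 CPM, was at 2523 CPM in macrophage-rule cells, whose markers summed to 401 CPM in luminal-type cells, and the part of macrophage RNA in its level was not tested.

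In the TGF-beta and BMP list 5 of 10 genes were higher and 2 were lower. Inhba, which encodes the subunit of activin A, was at 54.8, 102, 134 and 426 CPM by fraction, highest in fraction 4 (3.38, 3.00 to 3.78), and at 210.2 and 820.4 CPM in macrophage-rule and fibroblast-rule cells. A single cell held 160 of its 358 UMIs, and without fraction 4 its level fell from 216 to 113 CPM. Bmp2 and the inhibitory Smad gene Smad7 were higher as well (2.87, 2.09 to 3.74 and 1.91, 1.45 to 2.39). Tgfb2 and Id3, a gene induced by BMP signaling, were lower, with 8 UMIs of Tgfb2 (-3.68, -4.91 to -2.67) and 74.4 CPM of Id3 (-1.20, -1.49 to -0.91). Of 7 Notch genes tested, Hes1, a Notch target, was at 343, 391, 475 and 495 CPM by fraction (1.57, 1.40 to 1.74), Jag1 was higher too (1.99, 1.33 to 2.68) and Mfng was the lower gene.

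Hypoxia genes were higher in 9 of 14 cases and lower in none (median log2 ratio 1.22). Ndrg1, a gene induced by low oxygen, was at 617, 548, 279.8 and 380.2 CPM by fraction against 74.8 to 142 CPM (1.99, 1.80 to 2.18), and Ero1l, an oxidase of protein folding, at 356, 409, 319 and 468 CPM (1.69, 1.51 to 1.87). Car9, a carbonic anhydrase, was at 27.2 CPM (2.26, 1.44 to 3.14). P4ha1, a collagen prolyl hydroxylase gene, was just past the limit (1.01, 0.72 to 1.29) and would be under it with TMM scaling, as would Cldn3 and Cgn. Bnip3, a mitophagy receptor gene, was at 149 CPM and under 2-fold (0.39, 0.15 to 0.62). Of 16 glycolysis genes, 3 were higher, a share near the 14.4% of all genes, so the count says nothing of the list. They were Hk1, Tpi1 (1.56, 1.45 to 1.67) and Gapdh, at 1274, 1862, 1802 and 1722 CPM by fraction against 580.3 to 642 CPM (1.52, 1.44 to 1.60), while Eno1 was under 2-fold (-0.19, -0.27 to -0.10). In the unfolded protein response list 5 of 14 were higher, among them Xbp1 (1.79, 1.45 to 2.14) and the disulfide isomerase gene Pdia6 (1.21, 1.08 to 1.34), and the chaperone gene Hspa5, at 1591 CPM, was under 2-fold.

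Hypoxia and glycolysis UMIs went together from cell to cell. In 407 luminal-type cells thinned to 1000 UMIs, the sums of both lists had a Spearman rho of 0.42, the largest of 91 list pairs, and Slc2a1 belongs to both lists and was left out of the pair. These cells have equal depth by construction, so a high sum of 1 list leaves less room for the others. The 177 cells with 0 hypoxia UMIs had a mean of 5.09 glycolysis and 2.29 mitosis UMIs. The 173 cells with 1 to 3 had 6.29 and 2.31, and the 57 cells with at least 4 had 14.3 and 0.842. Median glycolysis UMIs were 5, 5 and 13 and median mitosis UMIs 1, 0 and 0 in these classes (rho -0.20 between hypoxia and mitosis sums). Of the 57 cells, 27 came from fraction 2 and 7 from fraction 3. At the level of genes, the partners of Ndrg1 picked for the highest rho were Ero1l (rho 0.43) and Bnip3 (rho 0.34). Ero1l was seen in 59.6% of the 171 cells with an Ndrg1 UMI and in 24.8% of the rest, at unequal depth. The 250 bases upstream of Bnip3 (chr7:138909507-138909756, minus strand, RefSeq, GRCm38.p6) are printed because they hold the core letters of hypoxia response elements, ACGTG and GCGTG on either strand, in capitals. The last bases of the window lie inside the GENCODE gene model.
Bnip3: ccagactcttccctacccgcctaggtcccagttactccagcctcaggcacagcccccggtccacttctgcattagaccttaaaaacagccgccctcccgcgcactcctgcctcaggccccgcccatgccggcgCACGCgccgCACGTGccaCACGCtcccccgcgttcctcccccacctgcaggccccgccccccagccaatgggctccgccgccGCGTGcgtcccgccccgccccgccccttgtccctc
The window held ACGTG 2 times, as both strands of 1 palindrome, and GCGTG 3 times. Of the 32851 upstream windows, 16.6% held ACGTG, 28.2% held GCGTG, 38.6% held at least 1 match of either and 1.01% held at least 5, as Bnip3 did. This is a description of letters and says nothing of binding.

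Mitosis genes had a lower pooled sum, but not in every fraction. Of 26 genes tested, 0 were at least 2-fold higher and 5 lower, a share not far from the 14.2% of all genes (median log2 ratio -0.51), and the sum was 2237 CPM against 3821 CPM in WB1P-Myc. By fraction it was 4495, 2239.7, 1792 and 2328 CPM against 3139.9 to 4324 CPM, so fraction 1 lay above all WB1P-Myc fractions and the other 3 below. Top2a, which encodes topoisomerase II alpha, was at 425, 215, 150.2 and 245 CPM by fraction against 811 to 1238 CPM (-2.28, -2.45 to -2.13). Mki67, Cdc20, Hmmr and Bub1b were the other lower genes, and Ube2c, at 343, 206, 171 and 259.5 CPM by fraction, differed little (0.10, -0.09 to 0.29). The share of cells with at least 3 mitosis UMIs at 1000 UMIs per cell was 28.5% (24.2 to 33.2), 116 of 407 luminal-type cells. By fraction it was 75.0% (15 of 20 cells), 23.3%, 24.8% and 30.4%, and 26.1% without fraction 1. In WB1P-Myc cells of the same rule it was 51.3% (47.3 to 55.3), in macrophage-rule cells 7.21% and in fibroblast-rule cells 8.24%. Shallower cells were left out, 115 luminal-type and 30 WB1P-Myc cells, and without thinning the shares were 44.8%, 76.2%, 13.9% and 13.9%. The share in luminal-type cells thus lay above that in stromal cells and, in fractions 2 to 4, below that in every WB1P-Myc fraction.

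**Figure D4:**
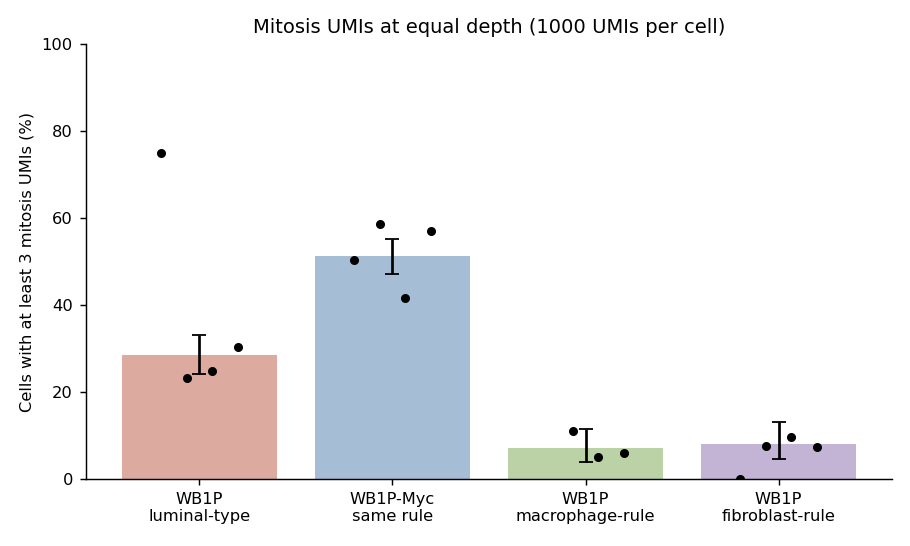
Share of cells with at least 3 UMIs of 26 mitosis genes after thinning each cell to 1000 UMIs, with bars for pooled shares, whiskers for 95% Clopper-Pearson intervals and points for fractions. WB1P fraction 1, with 20 cells, stands at 75.0%, and the other WB1P fractions at 23.3 to 30.4% lie between the stromal classes and WB1P-Myc.

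Counts of DNA replication and repair genes stand beside 14.4% of all genes called higher and 14.2% called lower. Most of all genes tested were under 2-fold too, so being under 2-fold does not set these lists apart. Of 22 replication genes, 1 was higher, the thymidine kinase gene Tk1 (1.56, 1.16 to 1.97), and 5 were lower, led by the licensing factor genes Cdc6 (-2.06, -2.86 to -1.35) and Cdt1 (-1.59). Pcna was at 186 CPM and under 2-fold. Of 10 homologous recombination and Fanconi genes tested, 0 were higher and 2 lower, Rad54l with 6 UMIs (-2.06, -3.58 to -0.83) and Brip1 with 17 (-1.65, -2.48 to -0.90). Without fraction 2, Rad54l fell from 3.63 to 1.81 CPM and Brip1 from 10.3 to 5.42 CPM. Among 7 p53 target genes tested, the cell cycle inhibitor gene Cdkn1a (1.71, 1.42 to 2.01) and Plk2 (2.12, 1.78 to 2.47) were higher, and Mdm2, Bax, Aen, Btg2 and Tnfrsf10b were under 2-fold. Cdkn1a was at 158 CPM in luminal-type, 1409 CPM in macrophage-rule and 184 CPM in fibroblast-rule cells.

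Genes known to respond to tissue handling, and genes of antigen presentation, were counted alongside. Immediate early and heat shock genes summed to 11005 CPM in luminal-type and 10598 CPM in WB1P-Myc cells, with 5 of 18 higher and 1 lower. Fos was at 5632, 2601, 1782 and 1842 CPM by fraction and under 2-fold from WB1P-Myc (0.88, 0.82 to 0.95), Ier3 was higher (2.07, 1.93 to 2.21) and Hsp90aa1, a chaperone gene, was lower, at 1494, 1705, 1292 and 1574 CPM by fraction against 3469.6 to 4559.7 CPM (-1.41, -1.47 to -1.35). Hspa1a and Hspa1b are near-identical copies, so their counts are uncertain. Of the MHC class I list, B2m was at 479.6, 1109.8, 965 and 737 CPM by fraction (1.79, 1.66 to 1.91) and Tapbp was higher as well, while H2-K1 and H2-D1, which share much sequence, were under 2-fold. MHC class II genes summed to 96.1 CPM against 22846 CPM in macrophage-rule cells. Of 7 interferon-stimulated genes, 0 were higher and 1, Ifi27l2a, was lower (-1.89, -3.17 to -0.82), with 4.84 CPM, or 1.81 CPM without fraction 4. A count of 1 in 7 is near the 14.2% of all genes called lower and says nothing of the list.

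Luminal-type cells differed from each other beyond counting error, and most strongly in a small set of genes. The measure was the excess squared coefficient of variation (excess CV squared), the variance between cells left after Poisson counting error, over the squared mean expected from each cell's depth and fraction. Over 1425 genes with at least 200 UMIs its median was 0.381, and 165 genes were above 1. The 10 highest values were those of Klk6 (55.2), Cytl1 (37.7), Inhba (36.8), Dcpp1 (30.4), Cst6 (23.0), Ly6d (16.9), Krt14 (16.5), S100a14 (10.8), Areg (10.6) and Yam1 (10.6). Klk6, a secreted serine protease gene, was at 68.5, 504, 86.4 and 20.1 CPM by fraction, and 1 cell of fraction 2 held 228 of its 334 UMIs (68.3%). Without fraction 2 its level fell from 202 to 52.4 CPM. Without each gene's top cell the values were 12.3 for Klk6, 13.9 for Cytl1, 12.9 for Inhba, 18.8 for Dcpp1, 20.1 for Cst6, 11.1 for Ly6d, 9.39 for Krt14, 3.62 for S100a14, 2.52 for Areg and 1.86 for Yam1. Apart from Cst6, each of these values was clearly lower with 1 cell left out. Without fraction 2, Klk6 was at 10.8, Cst6 at 11.7, Dcpp1 at 19.4, Krt14 at 10.7, S100a14 at 3.38, Areg at 2.40 and Yam1 at 1.39, and without fraction 4, Cytl1 was at 14.1 and Inhba at 9.20. Cytl1, a small secreted cytokine-like protein, was at 68.5, 42.0, 241 and 250.4 CPM by fraction and seen in 35 cells, and Ly6d at 274, 272, 208 and 95.0 CPM in 71 cells. Krt14 was seen in 86 of 522 cells, and at equal depth in 7.37% of luminal-type, 0.481% of macrophage-rule and 1.65% of fibroblast-rule cells. Klk6 and Cst6 were found in the same cells more than in others, with a Cst6 UMI in 60% of 35 cells with Klk6 and in 14.6% of the rest at unequal depth (rho 0.34 over 407 thinned cells). Areg went with S100a6 (rho 0.30) and Top2a with Cenpf (rho 0.34). These partners were picked for the highest rho with each gene, so the values run high by selection. S100a6, seen in 452 of the 522 cells, was also among the top partners of Klk6, Cst6, Krt14 and S100a14 (rho 0.26 to 0.29), so its pairing was not particular to Areg.

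**Figure D5:**
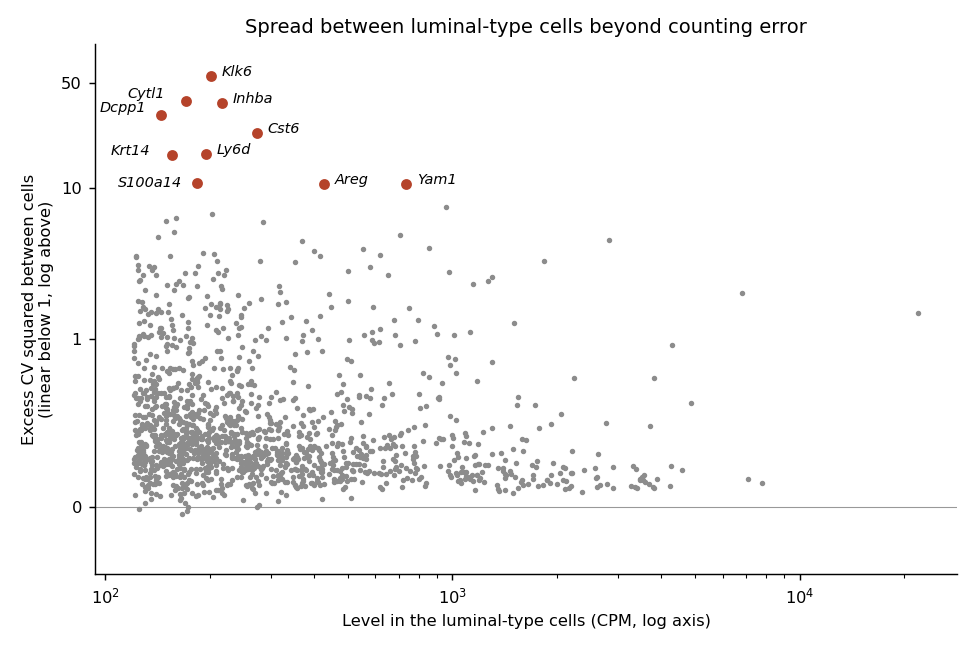
Excess CV squared between luminal-type cells (linear below 1, log above) against level (CPM, log axis), with the 10 highest genes labelled. Shown are 1417 genes with at least 200 UMIs, without mitochondrially encoded genes. Most genes lie below 1, and Klk6 stands at 55.2.

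Among list sums that the rule did not use, the other pair with a rho of at least 0.3 was luminal progenitor with milk and secretory genes (0.31), without the gene they share. All 407 cells come from 1 suspension and 4 libraries, so these values describe these cells. No pair of lists had a rho of -0.3 or below.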

How the data were processed

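Single cells of mammary tumors were measured by Drop-seq, with 4 droplet fractions of WB1P and 4 of WB1P-Myc, each deposited as a HiSeq table and a MiSeq table. The MiSeq tables had fewer UMIs except for WB1P fraction 1. The deposited files hold raw counts of UMIs per gene and cell barcode, which the authors made with the Drop-seq tools per the study's methods. The submitters' processing notes name the mm10 build and Scanpy, and the aligner's name is not given in the sources used. The table that merges all samples was left unused. The number of columns left unused for want of a matching sample was 0.

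Total counts per HiSeq table and the depth of the cells are given with the results. The members and gene lists were chosen with earlier results of these data known. Cells were selected by the marker rule, and counts were pooled over cells per fraction and model and scaled to CPM. Each model counts as 1 sample, so no p-value was computed. Counts carry exact Poisson, shares exact Clopper-Pearson and ratios conditional binomial 95% intervals. A group at 0 UMIs was set to 3 UMIs for its ratio, which is not a 95% limit. Genes with at least 50 UMIs over both groups were compared, and a call is a 2-fold difference. Shares of cells and Spearman correlations used cells thinned to 1000 UMIs (seed 7), and excess CV squared used genes with at least 200 UMIs. No doublet caller was run. The limit of 4000 genes and the stromal limits remove some doublets, and doublets of 2 tumor cells would not be seen.

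Named genes were the rule genes and the targeted genes, up to 4 most abundant and up to 3 most different genes of each list, the 15 most abundant genes, the 10 highest and 10 lowest ratios without overlap of fractions, the 10 highest ratios over stromal cells and the 10 highest excess CV squared. Both the ratios over stromal cells and the excess CV squared were ranked among genes with at least 200 UMIs in luminal-type cells. Rule genes were left out of the ratios over stromal cells. Mitochondrial genes were left out of these rankings where they could enter, and ribosomal protein genes out of the most abundant. Further list members outside this rule (among them Elf5, Aldh1a3, Kit, Gata3, Csn2, Dsp, Clu, P4ha1 and Mki67) were named after their values were seen. A few genes that the rule names are not reported here.

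Alternatives were the MiSeq tables, other cell limits, leaving out each fraction, TMM factors (edgeR 4.0.16), size factors (DESeq2 1.42.0), no count minimum, the mean of the fractions' CPM and thinning to 600 UMIs. Further alternatives were added after seeing the data, as described with their effect. Python 3.11.15, numpy 2.4.6, pandas 2.3.3, scipy 1.17.1 and R 4.3.3 were used, and the steps were tested on simulated data.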

Additional observations from a re-analysis of the deposited data

Results flagged for a closer look

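Of 41 sets of 4 fraction values checked for 1 value far from the rest (by Dixon's 95% critical value), 5 had such a value, 4 of them in fraction 1. The rate of about 1 in 20 sets by chance holds for independent sets of equally precise values. Fraction 1 rested on far fewer UMIs and the sets share the same cells, so the count is a description. In fraction 1 the luminal-type share was 75.4%, the share of cells with at least 3 mitosis UMIs was 75.0% and Mfge8 was at 1740.4 CPM, all the highest of 4, and Fn1 was the lowest at 343 CPM. Klk6 was highest in fraction 2, at 504 CPM, where 1 cell held most of its UMIs.

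Lcn2 was also seen in WB1P barcodes outside the rule, above its 172 CPM in macrophage-rule cells. It was at 2078 CPM in the 25 barcodes with 2 epithelial UMIs, at 1713 CPM in the 177 barcodes with 0 or 1, and at 4725 CPM in the 18 barcodes over 4000 genes, whose median depth was 28072.5 UMIs. Which cells these are was not tested.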

How the results depend on the processing

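No paired analysis was possible because the comparison comes from no test and the fraction numbers only name droplet fractions of 1 suspension. The luminal-type share was 31.1% with at least 200 genes per barcode, 23.6% with at least 10 epithelial UMIs and 32.9% with stricter stromal limits. With MiSeq counts, 498 genes were higher and 361 lower of 2879 tested, 35.7% of luminal-type cells had at least 3 mitosis UMIs, and median excess CV squared was 0.206. The excess CV squared of all 10 named genes moved with MiSeq counts (Klk6 to 7.08), and that of 7 of 10 without the 10% of luminal-type cells with most UMIs. With at least 10 epithelial UMIs 5 of 10 moved (Ly6d to 4.63, Areg to 2.40, Yam1 to 1.35, Cytl1 to 19.6 and Inhba to 10.9), and with stricter stromal limits 3 of 10 (Cytl1 to 13.0, Inhba to 14.2 and Yam1 to 2.30). Without a minimum of UMIs, 2560 genes were higher and 2578 lower. Thinning to 600 UMIs gave a mitosis share of 18.4%. TMM factors moved the median log2 ratio by over 0.1, to -0.12, and DESeq2 size factors moved it to -0.08 with 1059 genes higher and 1328 lower. Of 118 called ratios of named genes, 117 stayed past 2-fold under either, against 101 of 114 with MiSeq counts and 105 of 114 with WB1P-Myc cells without glial UMIs.

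An alternative chosen after seeing the data, WB1P-Myc cells without glial UMIs, gave 601 lower genes, and Mcam turned to a log2 ratio of 0.26. With MiSeq counts, Col5a2 turned to 0.91 and Tgfbi to 0.76. The cause was not tested. Leaving out the shallower of near-identical barcodes, and each gene's top cell, were also chosen after seeing the data. The first gave 499 luminal-type cells, with 1174 genes higher and 1175 lower. Their share was 38.2% of the 1307 WB1P cells, in which the left-out barcodes were still counted.

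Leaving out 1 fraction gave luminal-type shares of 38.1 to 41.2%, mitosis shares of 26.1 to 28.8%, 1048 to 1183 higher and 1015 to 1240 lower genes, luminal progenitor sums of 4994 to 5539 CPM and median excess CV squared of 0.339 to 0.384. Depth limits what genes under 50 UMIs can show.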
